A study of Homo sapiens with 12 samples.

Results

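SK-OV3 (SK-OV-3 in the labels) is an established human ovarian adenocarcinoma line that does not express p53. It was treated for 48 h with 5 µM BAY-850, a small molecule that inhibits the bromodomain protein ATAD2 (ATPase family AAA domain-containing 2), or given DMSO, and polyadenylated RNA was sequenced. The study asked which genes follow ATAD2 inhibition, to learn how the inhibitor acts on ovarian cancer growth. The 6 SK-OV3 libraries, 3 with BAY-850 and 3 with DMSO, were taken out of 12 in the series, and no library of the other line entered any step. Of 26475 genes in the table, 15348 passed an expression filter on these 6 libraries and were tested. Both groups were grown in RPMI with 10% fetal bovine serum, no genetic change is given for either group, and the data hold 1 line, 1 dose and 1 time. The labels do not say whether the replicates came from separate cultures. The study's methods give at least 3 biological replicates for all experiments, without saying how those of the RNA libraries were made. The p-values below measure only the spread between these libraries, which may be technical.

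A bromodomain is a pocket that reads acetylated lysine on histones, and ATAD2 pairs such a pocket with an ATPase domain and sits at chromatin as a coactivator, with known roles beside E2F and MYC. Immediate early genes such as FOS and EGR1 are switched on within minutes by growth factor signals that pass through ERK and serum response factor, and YAP with TEAD and TGF-beta control many matrix and cytoskeleton genes in carcinoma cells. Interferon and NF-kB signals induce antiviral and inflammatory genes, while ATF4 is the transcription factor that cells translate when amino acids run short or the endoplasmic reticulum is stressed.

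The libraries held 35442448 to 51840233 counts each. BAY-850 replicate 3 stood apart: it had the highest total but a count at only 15634 genes, against 17792 to 18440 in the other 5 libraries, and only 449 genes at 1 to 9 counts, against 2467 to 3067. Each result below was therefore also computed without it. The label of the line was checked against marker genes. The 15 markers of an ovarian adenocarcinoma line summed to 5000 to 5270 CPM (counts scaled to a common library total) with DMSO and 3870 to 4240 with BAY-850, with 13 to 15 of them at 1 CPM or more. Leukocyte markers summed to at most 1.43 CPM in any library, with 0 of 13 at 1 CPM. Endothelial markers summed to 6.23 to 7.27 CPM. Of 13 pluripotent cell markers, which would mark the other line, 2 reached 1 CPM, and their sum of 37.4 to 42.3 CPM with DMSO and 81.4 to 83.5 CPM with BAY-850 was carried by DNMT3B, a DNA methyltransferase (30, 33.4 and 33.0 CPM with DMSO and 72.8, 73.4 and 71.6 CPM with BAY-850). Fibroblast markers, which include COL1A1 and LUM, summed to 186 to 196 CPM with DMSO and 94.4 to 121 CPM with BAY-850. In bulk RNA, fewer cells that express a gene and less RNA per cell cannot be told apart.

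Levels are given as CPM scaled between libraries with TMM factors, in the order of replicates 1, 2 and 3. They are not divided by gene length, so a level is compared only with the level of the same gene. A gene is said to have risen or fallen where edgeR's quasi-likelihood test gave a Benjamini-Hochberg adjusted p under 0.05 over all 15348 genes. By this rule 1662 genes (10.8%) were higher and 1468 (9.56%) lower with BAY-850. Without DMSO replicate 2 these were 993 and 788, and without DMSO replicate 3 they were 1124 and 859. Changes of at least 2-fold were fewer, with 160 genes higher (1.04%) and 165 lower (1.08%). These were 205 and 254 without BAY-850 replicate 3, and 151 and 110 without DMSO replicate 2. The median log2 fold change over all genes was -0.01, and the groups did not overlap at 38.8% of genes, 19.4% in the higher and 19.5% in the lower direction. At 1.5-fold and an unadjusted p under 0.05, 4.06% were higher and 4.03% lower. The counts of gene lists below are to be read against these shares of all genes. Of the 3130 calls, 2927 (93.5%) stood in the same direction without BAY-850 replicate 3 and 0 in the opposite direction. Leading genes are, by GENCODE on GRCh38, the protein-coding genes TAGLN (chr11:117199321-117204782, plus strand), KRT5 (chr12:52514575-52520687, minus strand), C3 (chr19:6677704-6730562, minus strand) and GDF15 (chr19:18374731-18389176, plus strand).

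**Figure D1:**
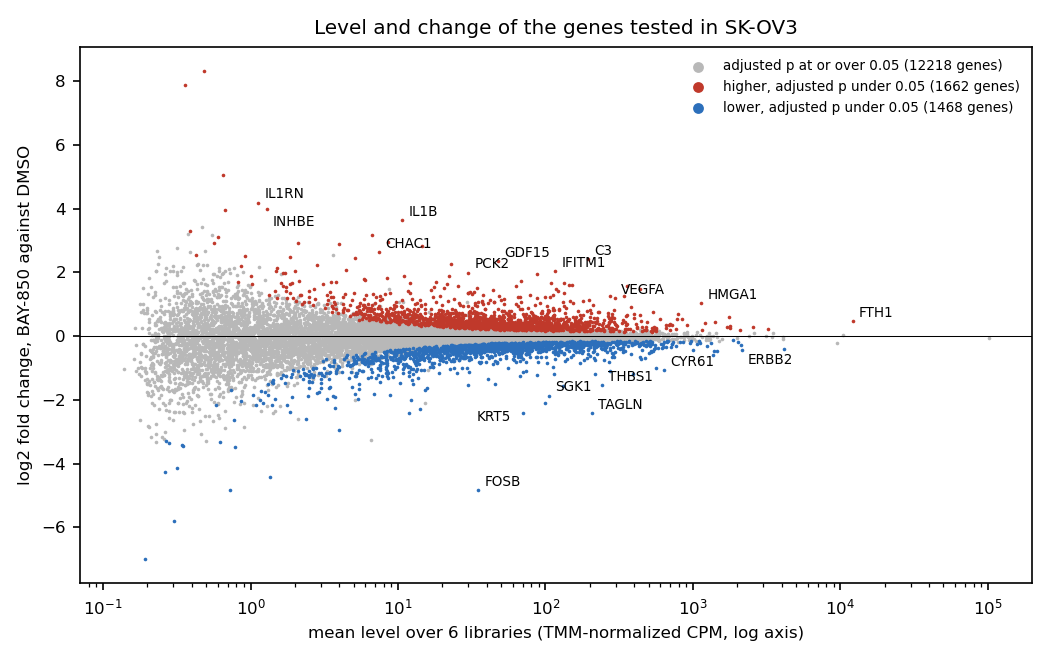
Each point is 1 of the 15348 genes tested, with its mean level over the 6 SK-OV3 libraries (CPM, log axis) against its log2 fold change, BAY-850 against DMSO. The 1662 genes that rose are red, the 1468 that fell blue, and the rest grey; the named genes FOSB, TAGLN and KRT5 lie far below 0 and IL1B, C3 and GDF15 far above.

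Promoter sequences of 5 of the genes described below are printed here because each carries the DNA word that names its group. They are the 250 bases before the RefSeq transcription start on GRCh38.p14, 5′ to 3′ on the strand of the gene, with the motif matches in capitals. EGR1 (chr5:138465229-138465478, plus strand) shows 2 CArG boxes, the words bound by serum response factor, which begin at -105 and -83 from the start. CTGF (chr6:131951373-131951622, minus strand) shows 3 copies of the TEAD word GGAATG, at -169, -104 and -95. CHAC1 (chr15:40953221-40953470, plus strand) shows the amino acid response word TTGCATCA at -209. MCM6 (chr2:135876444-135876693, minus strand) shows the E2F word TTTGGCGC at -152 and -90. IFIT1 (chr10:89392373-89392622, plus strand) shows the interferon response word on its reverse strand, TTTCGGTTTC, at -103. All 5 are protein-coding genes, and the annotated genes CHAC1 and IFIT1 begin before these RefSeq starts, at 40952962 and 89392546.
EGR1: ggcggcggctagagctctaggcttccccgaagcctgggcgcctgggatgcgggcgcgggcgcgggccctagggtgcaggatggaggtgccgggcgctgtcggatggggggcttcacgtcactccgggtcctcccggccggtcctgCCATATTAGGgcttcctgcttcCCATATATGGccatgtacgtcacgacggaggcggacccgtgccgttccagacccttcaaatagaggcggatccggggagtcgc
CTGF: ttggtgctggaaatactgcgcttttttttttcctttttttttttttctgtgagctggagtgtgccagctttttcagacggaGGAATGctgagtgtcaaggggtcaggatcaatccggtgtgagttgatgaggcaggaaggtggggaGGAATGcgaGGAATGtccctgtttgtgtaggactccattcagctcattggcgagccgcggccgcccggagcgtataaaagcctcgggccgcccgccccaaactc
CHAC1: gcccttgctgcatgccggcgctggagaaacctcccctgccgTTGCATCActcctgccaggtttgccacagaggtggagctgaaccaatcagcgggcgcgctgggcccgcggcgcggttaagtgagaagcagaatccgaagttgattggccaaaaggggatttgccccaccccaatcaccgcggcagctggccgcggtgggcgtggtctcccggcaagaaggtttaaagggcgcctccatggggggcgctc
MCM6: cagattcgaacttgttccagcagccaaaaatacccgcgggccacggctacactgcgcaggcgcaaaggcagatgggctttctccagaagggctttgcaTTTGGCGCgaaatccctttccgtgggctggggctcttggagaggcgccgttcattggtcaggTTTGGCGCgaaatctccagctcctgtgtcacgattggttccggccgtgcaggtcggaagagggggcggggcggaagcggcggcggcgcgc
IFIT1: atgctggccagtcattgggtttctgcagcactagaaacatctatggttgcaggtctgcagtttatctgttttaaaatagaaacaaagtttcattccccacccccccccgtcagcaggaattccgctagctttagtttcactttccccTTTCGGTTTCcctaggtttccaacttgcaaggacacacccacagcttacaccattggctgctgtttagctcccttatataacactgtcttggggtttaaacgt

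These words were searched on both strands in windows of 300 bases, 250 before to 50 after the RefSeq start, for the 11902 tested genes that matched an entry, 755 of them by another symbol. The interferon response word (GAAAC, any base, then GAAA) was in 20 of 32 interferon-induced genes (62.5%), in 1.05% of tested genes and in 0.763% of all 35116 promoters. Genes called at 1.5-fold or more were 3.04% of all tested in the higher and 2.76% in the lower direction, and among those with a promoter entry the word was in 5.67% of 353 that were higher and 0.987% of 304 that were lower. An E2F word, TTTCCCGC or TTTGGCGC, was in 20 of 44 DNA replication genes (45.5%), in 4.38% of tested genes and in 2.27% of all promoters. The CArG box was in 10 of 24 actin and serum response factor genes (41.7%), against 1.58% of tested genes and 1.29% of all promoters, and in 3 of 20 immediate early genes (EGR1, EGR2 and SRF). GGAATG was in 9 of 19 YAP and TEAD genes (47.4%), yet also in 15.1% of tested genes and 14% of all promoters. TTGCATCA was in 3 of 20 ATF4 genes (CHAC1, CEBPG and JDP2), against 0.697% of tested genes and 0.866% of all promoters. The AP-1 word TGACTCA, bound by FOS and JUN, was in 8.88% of the 1.5-fold lower genes, 6.8% of the higher, 5.05% of tested genes and 4.95% of all promoters. None of these words contains another. A match is a description of the window, not a measured binding site.

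Among immediate early genes a few members fell strongly and many did not pass the test. Of 26 tested, 10 fell and 4 rose, with a median log2 fold change of -0.16. The 4 that rose were 2 without DMSO replicate 2. FOS, which forms the AP-1 dimer with JUN proteins, stood at 156, 164 and 166 CPM with DMSO and 38.6, 36.8 and 37.9 CPM with BAY-850. Its DMSO libraries were all above its BAY-850 libraries, and it fell 4.29-fold (log2 fold change -2.10, SE 0.06, adjusted p = 3.35e-09). EGR1, the zinc finger factor whose promoter is printed above, stood at 543, 546 and 549 CPM with DMSO and 239.6, 235 and 251 CPM with BAY-850. The groups were again far apart beside a narrow spread, and EGR1 fell 2.26-fold (log2 fold change -1.17, SE 0.05, adjusted p = 4.05e-08). FOSB, a close relative of FOS, fell 28.4-fold, from 66.8, 66.7 and 69.8 to 1.93, 2.86 and 2.34 CPM. JUNB, an AP-1 partner, fell 1.37-fold and DUSP1, a phosphatase that switches off MAP kinases, fell 1.28-fold. Other AP-1 members moved the opposite way: FOSL2 stood at 131, 139.8 and 145 CPM with DMSO and 217, 218 and 188 CPM with BAY-850 and rose 1.49-fold (log2 fold change 0.58, SE 0.07, adjusted p = 0.000155). IER3, an early gene tied to cell survival, rose 1.18-fold. Genes that did not pass the test include SRF itself (log2 fold change -0.07), FOSL1 (0.18) and ATF3 (-0.13). Without BAY-850 replicate 3, 13 fell and 5 rose.

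Genes of the ERK feedback list, which also holds EGF receptor ligands, cytokines and ETS factors, went in part the same way. Of 23 tested, 8 fell and 2 rose (9 and 5 without BAY-850 replicate 3). DUSP6, the phosphatase that acts on ERK, stood at 21.1, 22.6 and 23.5 CPM with DMSO and 13.7, 12.4 and 11.3 CPM with BAY-850. No BAY-850 library reached the lowest DMSO library, and DUSP6 fell 1.8-fold (log2 fold change -0.85, SE 0.11, adjusted p = 0.000254). IL11, a secreted cytokine, fell 2.17-fold and DUSP4, a nuclear MAP kinase phosphatase, fell 1.47-fold. TGFA, a ligand of the EGF receptor, fell 1.38-fold. The 2 that rose were PHLDA1, a pleckstrin-domain protein (1.45-fold), and ETV5, an ETS factor (1.32-fold). Among 13 tested ERBB receptors and ligands, 4 fell and 0 rose. ERBB2, the receptor known to be amplified in this line, stood at 2192, 2536 and 2659 CPM with DMSO and 1966, 1911 and 1617 CPM with BAY-850. Its highest BAY-850 library lay below its lowest DMSO library, and it fell 1.34-fold (log2 fold change -0.43, SE 0.08, adjusted p = 0.00324). ERBB4, a receptor for neuregulins, fell 2.4-fold, and EGFR had a log2 fold change of -0.14 and did not pass. The fourth to fall was HBEGF (1.29-fold), whose adjusted p was no longer under 0.05 without DMSO replicate 2.

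Actin genes, many of them targets of serum response factor, fell more often than they rose. Of 27 tested, 13 fell and 2 rose, the same counts as without BAY-850 replicate 3. TAGLN (transgelin), an actin-bundling protein, stood at 386, 337 and 320.0 CPM with DMSO and 66.2, 67.1 and 62.0 CPM with BAY-850. The DMSO libraries lay far above every BAY-850 library, and TAGLN fell 5.34-fold (log2 fold change -2.42, SE 0.07, adjusted p = 6.11e-09). ACTB and ACTG1, the cytoplasmic actins, fell 1.38-fold and 1.32-fold, with ACTB at 1694, 1566 and 1566 CPM with DMSO and 1174, 1142 and 1178 CPM with BAY-850. Tropomyosins, which coat actin filaments, fell less: TPM1 by 1.28-fold and TPM2 by 1.26-fold. CNN3, an actin-binding calponin, rose 1.16-fold, and the other member that rose was no longer called without BAY-850 replicate 1 or 2 or DMSO replicate 2 or 3, which left 1. ACTB and ACTG1 are near identical in their coding sequence, so reads may have been split between them. The tubulins TUBA1B and TUBB, subunits of microtubules with near-identical relatives, fell 1.52-fold and 1.39-fold.

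YAP and TEAD target genes, listed with YAP1, WWTR1, TEAD1 and TEAD4 themselves, gave no common direction. Of 26 tested, 4 fell and 6 rose. The 4 that fell were 8 without DMSO replicate 1. The 6 that rose were 2 without BAY-850 replicate 1, 2 without BAY-850 replicate 2 and 2 without DMSO replicate 2, and 3 with scaling by library size, with or without ribosomal RNA genes, and with the replicate number as a block. CTGF, a secreted matrix protein whose promoter is printed above, stood at 195, 193 and 204 CPM with DMSO and 69.6, 67.2 and 62.6 CPM with BAY-850. Its groups were separated by more than 100 CPM, and it fell 2.97-fold (log2 fold change -1.57, SE 0.06, adjusted p = 2.68e-08). CYR61, its close relative, stood at 853, 858 and 856 CPM with DMSO and 407, 424 and 392.4 CPM with BAY-850 and fell 2.1-fold (log2 fold change -1.07, SE 0.04, adjusted p = 5.59e-08). WWTR1, which encodes the coactivator TAZ, fell 1.34-fold and ANKRD1, a cardiac ankyrin repeat protein, fell 1.37-fold. GADD45B, a stress sensor, and NUAK2, a kinase, rose 1.51-fold and 1.67-fold. YAP1 and TEAD1 themselves had log2 fold changes of -0.10 and -0.17 and did not pass.

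TGF-beta ligands, feedback and matrix genes split by member. Of 25 tested, 8 fell and 6 rose (9 and 6 without BAY-850 replicate 3). THBS1 (thrombospondin 1), which can activate latent TGF-beta, stood at 332, 364 and 378 CPM with DMSO and 133, 126 and 113 CPM with BAY-850. It was lower in each BAY-850 library than in any DMSO library and fell 2.89-fold (log2 fold change -1.53, SE 0.07, adjusted p = 1.05e-07). TGFBI, a matrix protein named for its induction by TGF-beta, stood at 373, 368 and 372 CPM with DMSO and 171, 169 and 183 CPM with BAY-850 and fell 2.13-fold (log2 fold change -1.09, SE 0.05, adjusted p = 9.09e-08). The collagens COL1A1 and COL4A1 fell 1.71-fold and 1.46-fold. The opposite direction held FN1 (fibronectin), at 1256, 1462 and 1485 CPM with DMSO and 2135, 2136 and 2048 CPM with BAY-850, which rose 1.5-fold (log2 fold change 0.59, SE 0.06, adjusted p = 4.57e-05). SMAD3, a transducer of TGF-beta receptors, rose 1.78-fold, and the collagen cross-linking enzymes LOX and LOXL2 rose 1.81-fold and 1.49-fold. Of 16 tested ID and BMP genes 6 rose and 2 fell. The inhibitors of differentiation ID2 and ID3 rose 1.61-fold and 1.63-fold. The 6 were 3 without DMSO replicate 2 and 3 without DMSO replicate 3, and the 2 were 1 without DMSO replicate 1 and 0 without BAY-850 replicate 1 or 2 or DMSO replicate 2 or 3.

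Basal keratins, the intermediate filaments of stratified epithelium, fell. Of 15 keratins tested, 7 fell and 1 rose, with a median log2 fold change of -0.61, and 8 fell without BAY-850 replicate 3. KRT5 stood at 129, 111 and 115 CPM with DMSO and 24.9, 23.4 and 18.3 CPM with BAY-850. Its groups did not overlap, and it fell 5.33-fold (log2 fold change -2.41, SE 0.11, adjusted p = 9.09e-08). KRT14, its dimer partner in basal cells, stood at 21.7, 19.0 and 18.2 CPM with DMSO and 4.57, 5.73 and 4.34 CPM with BAY-850 and fell 4.03-fold (log2 fold change -2.01, SE 0.14, adjusted p = 3.16e-06). KRT17, of hair follicles and injured epithelium, fell 2.27-fold. The simple-epithelium keratins KRT19 and KRT8 fell 1.59-fold and 1.43-fold, and KRT18 and KRT7 had log2 fold changes of -0.15 and -0.14 and did not pass. KRT80 was the keratin that rose (1.32-fold). Keratins share long stretches of sequence and have pseudogenes, so their reads may be divided. Of 9 tested transcription factors of epithelial-mesenchymal transition and vimentin, 0 passed the edgeR test in either direction, and DESeq2 and limma-voom also called 0. At an unadjusted p under 0.05, 2 were higher and 2 lower, and 1 rose without BAY-850 replicate 3 (GRHL1, an epithelial factor) and 1 fell without BAY-850 replicate 2. VIM (vimentin) had a log2 fold change of -0.04.

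Adhesion genes changed in both directions. Of 31 tested, 12 fell and 9 rose (11 and 10 without BAY-850 replicate 3). EPCAM, an epithelial adhesion molecule, stood at 41.7, 39.5 and 35.4 CPM with DMSO and 20.3, 18.5 and 20.1 CPM with BAY-850. All 3 BAY-850 libraries were near 20 CPM and all 3 DMSO libraries above 35 CPM, and EPCAM fell 1.98-fold (log2 fold change -0.98, SE 0.09, adjusted p = 2.04e-05). Of the integrin subunits, ITGB6 fell 2.05-fold, ITGA6 1.58-fold and ITGB4 1.39-fold, while ITGA3, a laminin receptor subunit, rose 1.36-fold and ITGA5, a fibronectin receptor subunit, rose 1.32-fold. The tight junction claudins CLDN1 and CLDN4 rose 1.64-fold and 1.75-fold, with CLDN1 at 154, 155 and 155 CPM with DMSO and 258, 260.1 and 241 CPM with BAY-850. CDH6, a cadherin, fell 1.57-fold. CDH1 (E-cadherin) and CDH2 (N-cadherin) had log2 fold changes of -0.07 and -0.12 and did not pass. Of 19 tested proteases of the matrix and their regulators, 5 fell and 3 rose, and the 3 were 1 without BAY-850 replicate 2. MMP7, a matrix metalloproteinase, stood at 62.1, 56.1 and 57.5 CPM with DMSO and 22.3, 22.9 and 24.5 CPM with BAY-850 and fell 2.52-fold (log2 fold change -1.33, SE 0.08, adjusted p = 6.13e-07). MMP2, a gelatinase, fell 1.65-fold. PLAT, the tissue plasminogen activator, stood at 29.1, 28.1 and 27.5 CPM with DMSO and 70.8, 70.4 and 62.5 CPM with BAY-850 and rose 2.4-fold (log2 fold change 1.27, SE 0.07, adjusted p = 7.39e-07).

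SGK1, a serum- and glucocorticoid-induced kinase that acts beside AKT, stood at 159, 166 and 171 CPM with DMSO and 45.5, 45.9 and 44.5 CPM with BAY-850. The groups lay more than 100 CPM apart, and SGK1 fell 3.65-fold (log2 fold change -1.87, SE 0.06, adjusted p = 6.11e-09). Of 15 tested genes on a list of mTORC1 brakes and SGK genes, 5 rose and 3 fell. The median log2 fold change of the list was -0.20, with 9 members below 0. A brake was among the 3 that fell, and the 3 were 1 without DMSO replicate 1 and 1 without DMSO replicate 3. Of the brakes that rose, SESN2, a leucine sensor, did so by 1.51-fold and TSC1, a subunit of the complex that inhibits RHEB, by 1.31-fold. TSC22D3, a glucocorticoid-induced leucine zipper protein on the same list, rose 1.62-fold. LGR6, a receptor for R-spondins, fell 6.11-fold, from 4.32, 3.84 and 4.02 to 0.779, 0.481 and 0.723 CPM. LCP1, an actin-bundling plastin, stood at 22.0, 23.4 and 25 CPM with DMSO and 4.55, 6.28 and 3.73 CPM with BAY-850 and fell 4.85-fold (log2 fold change -2.28, SE 0.17, adjusted p = 5.26e-06). LUM (lumican), a matrix proteoglycan, fell 4.77-fold and NIPAL4, a magnesium transporter-like protein, fell 5.26-fold. LGR6, LCP1, LUM and NIPAL4 were named by a rule that required no overlap between the groups, so their separation is no added result. That rule also named FOSB, TAGLN and KRT5 above, and the same holds for them. It holds as well for CCL20, SAA1, SAA2, LCN2, IL4I1, CLEC4E, INHBE and CHAC1 below.

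Interferon-induced genes rose nearly as a whole. Of 41 tested, 38 rose and 0 fell (38 and 0 without BAY-850 replicate 3), with a median log2 fold change of 0.95. Leaving out each library in turn left 33 to 38 higher. IFITM1, a membrane protein that blocks virus entry, stood at 49.8, 44.0 and 42.5 CPM with DMSO and 183, 185 and 197 CPM with BAY-850. The BAY-850 libraries were tight and far above the DMSO libraries, and IFITM1 rose 4.14-fold (log2 fold change 2.05, SE 0.07, adjusted p = 1.74e-08). OAS1, a synthase that senses double-stranded RNA, stood at 33.1, 33.5 and 29.4 CPM with DMSO and 100.2, 103 and 112 CPM with BAY-850 and rose 3.29-fold (log2 fold change 1.72, SE 0.07, adjusted p = 7.23e-08). OAS2, its larger relative, stood at 59.3, 62.0 and 63.7 CPM with DMSO and 179, 170.1 and 172 CPM with BAY-850 and rose 2.81-fold (log2 fold change 1.49, SE 0.06, adjusted p = 2.68e-08). The groups overlapped in neither gene. MX1, an antiviral GTPase, rose 2.41-fold and BST2 (tetherin), which holds back budding viruses, rose 2.39-fold. The 3 members that did not pass were SAMD9 (log2 fold change 0.09), SAMD9L (0.27) and GBP3 (0.23). IFIT1, the capped-RNA sensor whose promoter is printed above, stood at 65.8, 63.4 and 66.4 CPM with DMSO and 151, 151 and 182 CPM with BAY-850 and rose 2.47-fold. Among the 38 were transcription factors of the interferon response: STAT2 rose 1.71-fold, IRF9 2.11-fold and IRF7 2.35-fold, with STAT2 at 36.8, 37.6 and 38.1 CPM with DMSO and 66.2, 65.3 and 60.8 CPM with BAY-850. IFITM1 has near-identical neighbours, so part of its reads may belong to them.

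Class I antigen presentation rose by less. Of 16 tested genes, 9 rose and 0 fell (10 and 1 without BAY-850 replicate 3), and 1 fell without DMSO replicate 1. PSMB9, a subunit of the immunoproteasome, stood at 25, 23.1 and 23.2 CPM with DMSO and 38, 35.5 and 36.5 CPM with BAY-850 and rose 1.54-fold (log2 fold change 0.62, SE 0.08, adjusted p = 0.000228). TAP1, which carries peptides into the endoplasmic reticulum, rose 1.46-fold, and B2M, the light chain of class I molecules, rose 1.21-fold. Each BAY-850 library exceeded each DMSO library in all 3. HLA genes are close copies of one another and are polymorphic, so the value of a single HLA gene is uncertain.

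NF-kB subunits and feedback genes rose or did not pass. Of 20 tested, 11 rose and 0 fell (13 and 0 without BAY-850 replicate 3, and 1 fell without DMSO replicate 1), with a median log2 fold change of 0.53. SOD2, the mitochondrial superoxide dismutase that NF-kB induces, stood at 67.6, 70.6 and 76.3 CPM with DMSO and 222, 219 and 211 CPM with BAY-850. Its lowest BAY-850 library was more than 100 CPM above its highest DMSO library, and it rose 3.04-fold (log2 fold change 1.6, SE 0.06, adjusted p = 2.68e-08). BIRC3, an inhibitor of apoptosis protein, stood at 7.59, 9.08 and 8.88 CPM with DMSO and 26.6, 29.5 and 26.8 CPM with BAY-850 and rose 3.24-fold (log2 fold change 1.70, SE 0.11, adjusted p = 1.5e-06). NFKB2, the subunit of the alternative pathway, rose 2.17-fold and NFKBIA, the inhibitor that NF-kB makes against itself, rose 1.79-fold. TNFAIP2, a TNF-induced protein, rose 2.08-fold. TNFAIP3 (A20), another feedback gene, and NFKB1 had log2 fold changes of -0.04 and 0.16 and did not pass.

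Of 23 tested interleukin-1 family, colony-stimulating factor and chemokine genes, 8 rose and 2 fell (9 and 2 without BAY-850 replicate 3). IL1A, a cytokine released by damaged epithelial cells, stood at 35.4, 38.6 and 33.9 CPM with DMSO and 133, 133 and 155 CPM with BAY-850. Its groups did not overlap, and it rose 3.9-fold (log2 fold change 1.96, SE 0.08, adjusted p = 4.19e-08). CSF1, the macrophage growth factor, stood at 52.9, 51.7 and 53.4 CPM with DMSO and 173, 171 and 157 CPM with BAY-850 and rose 3.16-fold (log2 fold change 1.66, SE 0.06, adjusted p = 2.61e-08). CCL20, a chemokine for CCR6-bearing cells, rose 7.41-fold, from 1.11, 0.919 and 0.815 to 5.70, 7.10 and 8.30 CPM, and CXCL8, which attracts neutrophils, rose 1.68-fold. The 2 that fell were CXCL1 (1.2-fold), a neutrophil chemokine, and IL1R2 (1.91-fold), the decoy receptor of interleukin-1. IL6 had a log2 fold change of -0.21 and did not pass. Acute-phase proteins were among the genes with the largest rises at 1 CPM or more: SAA1, serum amyloid A, rose 7.79-fold, from 2.01, 2.05 and 1.73 to 13.1, 15.8 and 16.3 CPM. LCN2, a siderophore-binding lipocalin, rose 7.17-fold, from 4.37, 2.49 and 3.81 to 28, 27.5 and 21.2 CPM. IL4I1, an amino acid oxidase of antigen-presenting cells, rose 8.96-fold, and CLEC4E, a C-type lectin receptor, rose 5.62-fold. SAA1 shares most of its sequence with SAA2, which rose 7.61-fold.

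Complement genes held C3, the central protein of the cascade, at 57.7, 64.5 and 60.5 CPM with DMSO and 329.9, 312 and 334 CPM with BAY-850. Every BAY-850 library exceeded 300 CPM and every DMSO library was below 65 CPM, and C3 rose 5.34-fold (log2 fold change 2.42, SE 0.06, adjusted p = 1.57e-09). Of 18 complement genes tested, 5 rose and 1 fell (5 and 3 without BAY-850 replicate 3). CFB, the protease of the alternative pathway, rose 2.5-fold and C1R and C1S, the proteases of the classical pathway, rose 2.58-fold and 2.12-fold. CD55, which protects cells from complement, rose 1.51-fold. The 1 that fell was 0 without DMSO replicate 1, 2 or 3.

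**Figure D2:**
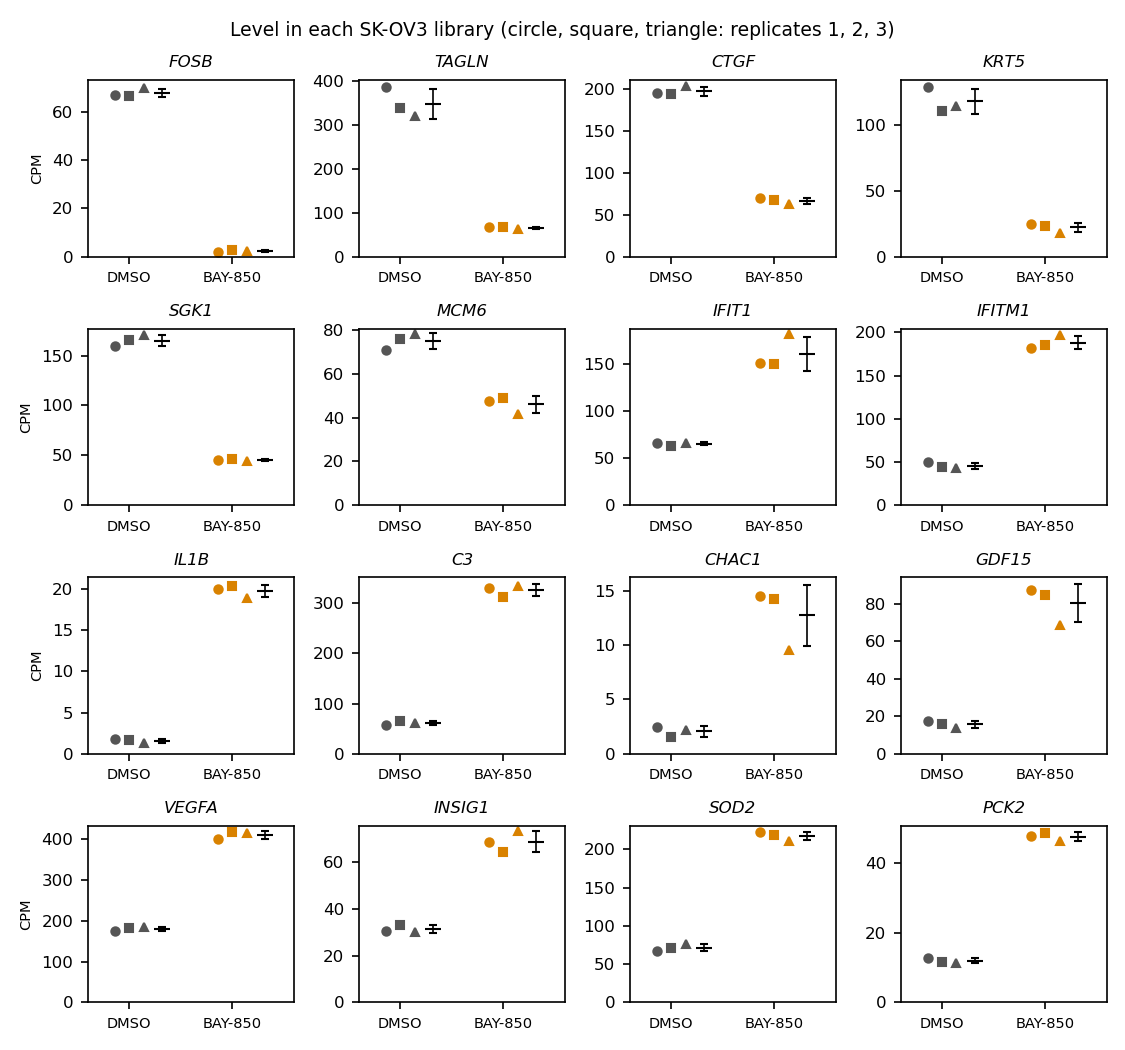
Level in each library (CPM, axes from 0) of 16 genes, with circles, squares and triangles for replicates 1, 2 and 3 and a bar for the mean and SD of 3 libraries. In every panel the 3 BAY-850 libraries lie on 1 side of the 3 DMSO libraries, lower for FOSB, TAGLN, CTGF, KRT5, SGK1 and MCM6 and higher for the rest. FOSB, TAGLN, KRT5, IL1B and CHAC1 were named by a rule that required this, and IFIT1 was chosen with its values known. For these the separation is no added result.

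Genes of the ATF4 list, which holds ATF4 itself and stress regulators beside its targets, mostly rose. Of 25 tested, 21 rose and 2 fell (21 and 2 without BAY-850 replicate 3), with a median log2 fold change of 0.70, and leaving out each library in turn left 20 to 22 higher. ATF4 itself, whose protein is set mainly by translation, rose 1.37-fold. GDF15, a secreted stress cytokine, stood at 17.5, 15.7 and 13.7 CPM with DMSO and 87.2, 84.6 and 68.7 CPM with BAY-850. BAY-850 replicate 3 was the lowest of the treated libraries yet still far above the controls, and GDF15 rose 5.13-fold (log2 fold change 2.36, SE 0.11, adjusted p = 1.36e-07). CHAC1, which degrades glutathione, stood at 2.47, 1.54 and 2.16 CPM with DMSO and 14.5, 14.2 and 9.51 CPM with BAY-850 and rose 6.18-fold (log2 fold change 2.63, SE 0.23, adjusted p = 1.5e-05). DDIT3 (CHOP), the transcription factor of prolonged stress, stood at 52.1, 54.8 and 53.1 CPM with DMSO and 119, 121 and 126 CPM with BAY-850. Its libraries were tight within each group and far apart between them, and it rose 2.28-fold (log2 fold change 1.19, SE 0.06, adjusted p = 1.36e-07). TRIB3, a pseudokinase that restrains ATF4, rose 2.98-fold, STC2, a secreted glycoprotein, rose 2.99-fold and DDIT4, a brake of mTORC1, rose 3.06-fold. INHBE, an activin subunit of the liver, rose 15.9-fold from 0.129, 0.216 and 0.105 to 2.41, 2.24 and 2.60 CPM. The 2 that fell were ATF5, a relative of ATF4 (1.3-fold), and SLC7A11, the cystine transporter (1.17-fold), which was no longer called without BAY-850 replicate 1 or 2 or DMSO replicate 2 or 3. PPP1R15A (GADD34), which ends the stress signal at eIF2, had a log2 fold change of 0.10 and did not pass.

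Enzymes of serine, glycine, one-carbon and asparagine synthesis changed in both directions. Of 25 tested, 12 rose and 4 fell (11 and 4 without BAY-850 replicate 3). PCK2, a mitochondrial enzyme that makes phosphoenolpyruvate, stood at 12.8, 11.7 and 11.4 CPM with DMSO and 47.8, 48.9 and 46.4 CPM with BAY-850. No library fell between its groups, and PCK2 rose 3.98-fold (log2 fold change 1.99, SE 0.08, adjusted p = 5.59e-08). PHGDH, the entry enzyme of serine synthesis, stood at 17.5, 17.3 and 16.7 CPM with DMSO and 45.9, 47.5 and 41.1 CPM with BAY-850 and rose 2.61-fold (log2 fold change 1.38, SE 0.08, adjusted p = 1e-06). ASNS, asparagine synthetase, rose 2.56-fold, CBS, which channels homocysteine into cysteine, rose 2.44-fold and SHMT2, the mitochondrial serine hydroxymethyltransferase, rose 1.48-fold. Among those that fell were TYMS, thymidylate synthase (1.45-fold), MTHFD1, a cytosolic folate enzyme (1.28-fold), and ALDH18A1, which makes proline precursors (1.12-fold). ALDH18A1 was no longer called without BAY-850 replicate 1 or 2 or DMSO replicate 2 or 3.

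Cytosolic aminoacyl-tRNA synthetases charge tRNAs with amino acids. Of 20 tested, 8 rose and 2 fell (8 and 4 without BAY-850 replicate 3). The 2 that fell were 1 without BAY-850 replicate 1, 0 without BAY-850 replicate 2, 0 without DMSO replicate 2 and 1 without DMSO replicate 3. AARS, for alanine, stood at 140.0, 143 and 142 CPM with DMSO and 283, 293 and 264 CPM with BAY-850 and rose 1.98-fold (log2 fold change 0.99, SE 0.05, adjusted p = 3.87e-07). CARS, for cysteine, rose 1.99-fold and SARS, for serine, rose 1.52-fold. The BAY-850 levels of all 3 lay wholly above the DMSO levels. LARS, for leucine, and EPRS, for glutamate and proline, had log2 fold changes of -0.07 and -0.09 and did not pass. Of 17 mitochondrial synthetases tested, 2 rose (CARS2 and PARS2) and 0 fell. Both were lost without BAY-850 replicate 1 or 2 or DMSO replicate 2 or 3, and PARS2 also without DMSO replicate 1. Neither was called with RLE factors, with scaling by library size or with the replicate number as a block. Of 20 amino acid transporters tested, 7 rose and 3 fell. The 7 were 4 without BAY-850 replicate 2 and 4 without DMSO replicate 2, and the 3 were 1 without each of BAY-850 replicates 1 and 2 and DMSO replicates 2 and 3. SLC1A5, a glutamine transporter, stood at 78.7, 76.0 and 82.1 CPM with DMSO and 142, 142 and 154 CPM with BAY-850 and rose 1.85-fold (log2 fold change 0.89, SE 0.06, adjusted p = 1.83e-06). SLC38A2, a sodium-coupled neutral amino acid transporter, rose 1.33-fold, and SLC36A1, a lysosomal proton-coupled carrier, fell 1.6-fold.

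Chaperones and folding enzymes of the endoplasmic reticulum changed in both directions. Of 26 tested, 5 rose and 8 fell (4 and 9 without BAY-850 replicate 3). The 8 were 4 without BAY-850 replicate 1, 4 without BAY-850 replicate 2, 3 without DMSO replicate 2 and 4 without DMSO replicate 3, and the 5 were 3 without BAY-850 replicate 2 and 3 without DMSO replicate 2. HSPA5 (BiP), the main chaperone of this response, had a log2 fold change of -0.05 (SE 0.04) and did not pass. CALR, a calcium-binding lectin chaperone, stood at 817, 768 and 751 CPM with DMSO and 646, 658 and 672 CPM with BAY-850 and fell 1.18-fold (log2 fold change -0.24, SE 0.05, adjusted p = 0.00354). HYOU1, a large HSP70 relative, fell 1.21-fold. XBP1, a transcription factor of the unfolded protein response, stood at 108, 101 and 98.8 CPM with DMSO and 146, 150.1 and 153 CPM with BAY-850 and rose 1.46-fold (log2 fold change 0.55, SE 0.06, adjusted p = 4.75e-05). HERPUD1, which helps degrade misfolded proteins, rose 1.37-fold. These changes were small, but for each of the 4 genes called, no library of either group lay within the range of the other.

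Hypoxia target genes, listed with HIF1A, EPAS1 and VHL, rose or did not pass. Of 29 tested, 19 rose and 0 fell (20 and 0 without BAY-850 replicate 3), with a median log2 fold change of 0.41. EPAS1, which encodes the oxygen-regulated factor HIF-2 alpha, stood at 58.3, 57.9 and 61.9 CPM with DMSO and 138, 135 and 141 CPM with BAY-850. The lowest treated library lay far above the highest control, and EPAS1 rose 2.32-fold (log2 fold change 1.21, SE 0.06, adjusted p = 1.05e-07). VEGFA, the angiogenic growth factor, rose 2.28-fold, BNIP3, a mitophagy receptor, rose 1.91-fold and NDRG1, a stress-induced gene, rose 1.76-fold. STC2 is a member of this list as well as of the ATF4 list. HIF1A, the other oxygen-regulated alpha subunit, and SLC2A1, the glucose transporter, had log2 fold changes of 0.11 and 0.06 and did not pass. The hypoxia response word ACGTGC was in 6 of 23 promoters of the list (26.1%), against 11.2% of tested genes and 6.89% of all promoters.

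Glycolysis genes rose by small steps. Of 21 tested, 14 rose and 1 fell (LDHB, 1.2-fold), with a median log2 fold change of 0.21. ALDOC, the brain form of aldolase, stood at 9.67, 11.8 and 10.2 CPM with DMSO and 31.0, 28.6 and 31.0 CPM with BAY-850, and its groups did not overlap. It rose 2.86-fold (log2 fold change 1.52, SE 0.10, adjusted p = 2.5e-06). ENO2, the neuronal form of enolase, rose 2.04-fold, while the main forms changed less: PGK1, phosphoglycerate kinase, by 1.29-fold, GAPDH by 1.21-fold and ENO1 by 1.16-fold. TXNIP, which limits glucose uptake, stood at 257, 263 and 276 CPM with DMSO and 521, 512 and 469 CPM with BAY-850 and rose 1.89-fold (log2 fold change 0.92, SE 0.05, adjusted p = 7.8e-07). SLC16A3, the lactate exporter, rose 1.34-fold.

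Cholesterol genes rose or did not pass. Of 27 tested, 14 rose and 0 fell (17 and 0 without BAY-850 replicate 3), with a median log2 fold change of 0.37. INSIG1, which holds the sterol sensor in the endoplasmic reticulum, stood at 30.6, 33.1 and 29.9 CPM with DMSO and 68.4, 64.3 and 73.3 CPM with BAY-850. It was higher in each treated library than in any control and rose 2.2-fold (log2 fold change 1.14, SE 0.08, adjusted p = 1.84e-06). MSMO1, a sterol demethylation enzyme, stood at 58.6, 62.9 and 57.1 CPM with DMSO and 99.0, 97.9 and 105 CPM with BAY-850 and rose 1.69-fold (log2 fold change 0.76, SE 0.06, adjusted p = 1.09e-05). SREBF2, the transcription factor of this pathway, rose 1.46-fold and FDFT1, squalene synthase, rose 1.47-fold. HMGCS1, an early synthase of the pathway, had a log2 fold change of 0.09 and did not pass. LSS and SREBF1 were called only without BAY-850 replicate 3, as described below. Of 21 tested genes of fatty acid synthesis and desaturation 9 rose and 2 fell. The 2 were 4 without DMSO replicate 1, 1 without BAY-850 replicate 3 and 0 without each of the other 4 libraries. SCD, which makes monounsaturated fatty acids, stood at 62.7, 67.3 and 68.7 CPM with DMSO and 170.5, 169 and 187 CPM with BAY-850. Its treated libraries all exceeded 165 CPM and its controls stayed below 70 CPM, and it rose 2.65-fold (log2 fold change 1.40, SE 0.06, adjusted p = 8.98e-08). FADS2, a desaturase of polyunsaturated fatty acids, rose 1.42-fold, and FASN, fatty acid synthase, had a log2 fold change of 0.14 and did not pass.

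Of 34 tested lysosome and V-ATPase genes 15 rose and 2 fell (17 and 1 without BAY-850 replicate 3). The 2 that fell were 1 without BAY-850 replicate 1 and 0 without BAY-850 replicate 2 or any DMSO library. NPC1, which exports cholesterol from lysosomes, stood at 96.8, 100.3 and 103 CPM with DMSO and 212, 219.6 and 187 CPM with BAY-850. BAY-850 replicate 3 was the lowest treated library and still far above the controls, and NPC1 rose 2.06-fold (log2 fold change 1.04, SE 0.07, adjusted p = 1.24e-06). SQSTM1 (p62), an autophagy receptor, stood at 628, 604 and 588 CPM with DMSO and 1007, 974 and 976 CPM with BAY-850 and rose 1.62-fold (log2 fold change 0.70, SE 0.04, adjusted p = 1.13e-06). NEU1, a sialidase, rose 1.95-fold and the cathepsins CTSB and CTSD rose 1.32-fold and 1.27-fold. FTH1, the ferritin heavy chain, stood at 10961, 9745 and 9565 CPM with DMSO and 14009, 13628 and 14752 CPM with BAY-850 and rose 1.4-fold (log2 fold change 0.49, SE 0.05, adjusted p = 5.15e-05). FTH1 has many processed pseudogenes, which may take or add reads.

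DNA replication genes were lower throughout. All 51 tested had a log2 fold change below 0, 32 of them fell and 0 rose (41 and 0 without BAY-850 replicate 3), with a median of -0.43. Leaving out each library in turn left 26 to 41 lower. RRM2, the regulated subunit of ribonucleotide reductase, stood at 137, 129 and 130.4 CPM with DMSO and 73.9, 74.5 and 73.3 CPM with BAY-850. The treated libraries lay within 2 CPM of one another and far below the controls, and RRM2 fell 1.78-fold (log2 fold change -0.84, SE 0.05, adjusted p = 1.5e-06). MCM6, a subunit of the replicative helicase whose promoter is printed above, stood at 70.8, 76.1 and 78.3 CPM with DMSO and 47.4, 49.1 and 41.6 CPM with BAY-850 and fell 1.63-fold (log2 fold change -0.71, SE 0.08, adjusted p = 8.32e-05). MCM4, of the same helicase, stood at 103, 105 and 106 CPM with DMSO and 63.5, 69.1 and 68.5 CPM with BAY-850. It did not overlap between the groups, and it fell 1.56-fold. Of 13 tested E2F and RB genes 4 fell and 1 rose. The 4 were 2 without DMSO replicate 2, and the 1 was 0 without BAY-850 replicate 2 or any DMSO library. E2F2, an activator of the S phase genes, stood at 4.63, 5.46 and 5.62 CPM with DMSO and 2.96, 2.50 and 1.6 CPM with BAY-850 and fell 2.23-fold (log2 fold change -1.16, SE 0.26, adjusted p = 0.00944). E2F4 and RB1 had log2 fold changes of -0.09 and -0.23 and did not pass.

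Of 33 tested cyclins, cell cycle kinases and CDK inhibitors, 15 fell and 3 rose (15 and 3 without BAY-850 replicate 3). MKI67, the proliferation antigen Ki-67, stood at 215, 250.3 and 267 CPM with DMSO and 155, 156 and 168 CPM with BAY-850. The DMSO libraries spread over 50 CPM, the treated ones lay below all of them, and MKI67 fell 1.53-fold (log2 fold change -0.61, SE 0.07, adjusted p = 0.000189). FOXM1 and MYBL2, transcription factors of the late cell cycle, fell 1.53-fold and 1.42-fold. The 3 that rose were the CDK inhibitors CDKN1A (1.56-fold), CDKN1B (1.35-fold) and CDKN1C (1.59-fold), the last at 23.6, 22.5 and 20.2 CPM with DMSO and 33.8, 36.1 and 35.5 CPM with BAY-850. CCND1 and CDK4, which act early in G1, had log2 fold changes of 0.10 and 0.07 and did not pass.

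Kinetochore and centromere genes, which the study follows up, fell or did not pass. Of 40 tested, 14 fell and 0 rose (20 and 0 without BAY-850 replicate 3, 9 and 0 without DMSO replicate 3), with a median log2 fold change of -0.27. ZWINT, which links the kinetochore to the checkpoint, stood at 92.0, 92.8 and 88.8 CPM with DMSO and 62.4, 63.9 and 60.8 CPM with BAY-850. Its groups did not overlap, and it fell 1.46-fold (log2 fold change -0.55, SE 0.06, adjusted p = 6.22e-05). CASC5 (KNL1), the scaffold that checkpoint kinases dock on, stood at 26.5, 34.7 and 36.2 CPM with DMSO and 18.8, 20.4 and 19.1 CPM with BAY-850 and fell 1.67-fold (log2 fold change -0.74, SE 0.12, adjusted p = 0.00106). CENPF, a late cell cycle protein of the outer kinetochore, fell 1.36-fold, CENPO, of the inner kinetochore, fell 1.32-fold and OIP5, which helps load the centromeric histone, fell 1.51-fold. CENPE, the motor protein against which the study tested an inhibitor, did not pass with all 6 libraries (log2 fold change -0.31, SE 0.14, adjusted p = 0.154). It stood at 25.1, 32.4 and 33.1 CPM with DMSO and 20.2, 23.9 and 29.2 CPM with BAY-850. BAY-850 replicates 1 and 2 lay below every DMSO library, and replicate 3, the library that stood apart, lay within their range. The study reported CENPE as significantly lower in this line after BAY-850, in mRNA by qRT-PCR and in protein by immunoblot. It had first read several centromere protein genes as lower in its RNA sequencing. Its genes shared by both lines were taken at a p value under 0.05 with no adjustment named, a threshold unlike the adjusted p used here. CENPA, the centromeric histone, had a log2 fold change of 0.05 and did not pass. The cell cycle homology word TTTGAA was in 16 of 34 promoters of this list (47.1%), against 13.9% of tested genes and 15.2% of all promoters. Of 25 tested genes of homologous recombination and the Fanconi pathway 9 fell and 0 rose. The 9 were 5 without BAY-850 replicate 1, 5 without BAY-850 replicate 2, 4 without DMSO replicate 2 and 4 without DMSO replicate 3. FANCI and FANCD2, which clamp DNA at crosslinks, fell 1.4-fold and 1.38-fold, with FANCD2 at 36.1, 36.1 and 38.4 CPM with DMSO and 26.1, 24.2 and 29.6 CPM with BAY-850.

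Targets of NRF2, the factor of the antioxidant response, listed with NFE2L2 and KEAP1, fell more often than they rose. Of 24 tested, 13 fell and 2 rose (12 and 3 without BAY-850 replicate 3), with a median log2 fold change of -0.24. NQO1, a quinone reductase, stood at 409.7, 390.3 and 373 CPM with DMSO and 255, 269 and 306 CPM with BAY-850. BAY-850 replicate 3 was the highest treated library and still lay below the controls, and NQO1 fell 1.41-fold (log2 fold change -0.50, SE 0.07, adjusted p = 0.000417). The aldo-keto reductases AKR1C1, AKR1C2 and AKR1C3, which are close copies of one another and may share reads, fell 1.59-fold, 1.75-fold and 1.49-fold. PRDX1, a peroxiredoxin, fell 1.25-fold. NFE2L2, which encodes NRF2, rose 1.23-fold, at 141, 145 and 147 CPM with DMSO and 164, 176 and 191 CPM with BAY-850. The other that rose was TXNRD1 (thioredoxin reductase, 1.13-fold), no longer called without BAY-850 replicate 1 or 2 or DMSO replicate 2.

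Of 38 tested proteasome subunits 15 fell and 2 rose (18 and 2 without BAY-850 replicate 3), with a median log2 fold change of -0.17. The 15 were 8 without BAY-850 replicate 1, 8 without BAY-850 replicate 2 and 9 without DMSO replicate 2. PSMD2, of the regulatory cap, stood at 593, 598 and 598 CPM with DMSO and 437, 427 and 382 CPM with BAY-850. The DMSO libraries differed by less than 10 CPM, the treated ones were lower by more than 150 CPM, and PSMD2 fell 1.44-fold (log2 fold change -0.52, SE 0.05, adjusted p = 5.78e-05). PSMD1 fell 1.32-fold and PSMC5, an ATPase of the cap, fell 1.26-fold. The 2 that rose were PSME1, a subunit of the interferon-induced PA28 activator (1.4-fold), at 128, 114 and 113 CPM with DMSO and 162, 162 and 172 CPM with BAY-850, and its partner PSME2 (1.25-fold), which was no longer called without DMSO replicate 2 or 3. Some lists lay near or below the shares of all genes called. Of 78 cytosolic ribosomal protein genes tested, 2 fell (RPS3A and RPL7A) and 0 rose (6 and 0 without BAY-850 replicate 3). DESeq2 called 7 of them lower, and edgeR with no filter on low counts 5. Without DMSO replicate 1, 11 of them rose. RPS3A was no longer called without BAY-850 replicate 1, nor RPL7A without BAY-850 replicate 1 or 2 or DMSO replicate 3. Of 75 respiratory chain genes 6 fell and 0 rose. The 6 were 3 without BAY-850 replicate 1, 10 without BAY-850 replicate 3, 3 without DMSO replicate 1 and 3 without DMSO replicate 2, and 1 rose without BAY-850 replicate 3 or DMSO replicate 1.

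**Figure D3:**
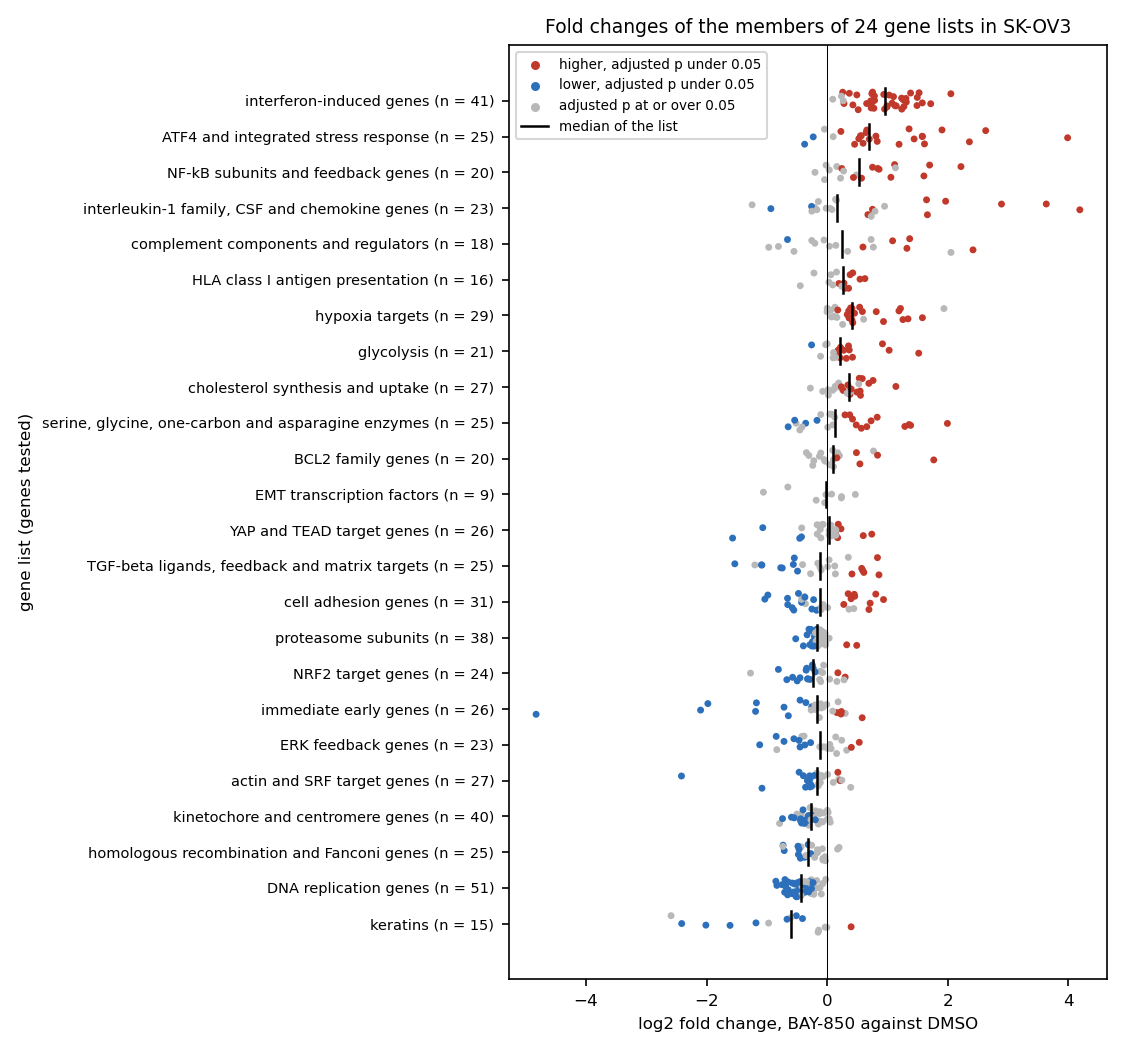
Log2 fold change, BAY-850 against DMSO (horizontal axis), of each tested member of the gene lists on the vertical axis, red where it rose, blue where it fell and grey where it did not pass, with a black bar at each list's median. The interferon and ATF4 lists lie almost wholly right of 0, DNA replication wholly left, and adhesion and TGF-beta genes on both sides.

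Genes of the BCL2 family and death receptors rose or did not pass. Of 20 tested, 5 rose and 0 fell (6 and 1 without BAY-850 replicate 3), and 1 fell without DMSO replicate 1. BBC3 (PUMA), a BH3-only killer protein, stood at 2.42, 3.03 and 2.71 CPM with DMSO and 7.89, 8.64 and 11.2 CPM with BAY-850. No treated library came near a control, and BBC3 rose 3.4-fold (log2 fold change 1.77, SE 0.20, adjusted p = 9.39e-05). TNFRSF10B and TNFRSF10A, the receptors of TRAIL, rose 1.4-fold and 1.78-fold, with TNFRSF10B at 99.9, 105 and 100.5 CPM with DMSO and 150.3, 146 and 132 CPM with BAY-850. BMF, another BH3-only protein, rose 1.46-fold. PMAIP1 (NOXA) rose 1.12-fold and was no longer called without BAY-850 replicate 1 or 2 or DMSO replicate 2 or 3. The survival genes BCL2, MCL1 and BCL2L1 had log2 fold changes of -0.35, -0.11 and 0.10 and did not pass.

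Among genes that encode bromodomains or AAA relatives of ATAD2, 2 of 30 tested rose and 4 fell. DESeq2 called 7 of them lower. ATAD2, the target of the compound, stood at 71.9, 85.1 and 85.8 CPM with DMSO and 55.7, 60.1 and 59.1 CPM with BAY-850. DMSO replicate 1 was the lowest control yet above all treated libraries, and ATAD2 fell 1.39-fold (log2 fold change -0.47, SE 0.08, adjusted p = 0.0014). ATAD2B, its paralog, had a log2 fold change of 0.21 and did not pass. PBRM1, of a chromatin remodelling complex, stood at 36.2, 43.4 and 43.1 CPM with DMSO and 27.3, 27.9 and 31.1 CPM with BAY-850 and fell 1.42-fold (log2 fold change -0.51, SE 0.09, adjusted p = 0.00281), and PHIP, a WD-repeat protein, fell 1.3-fold. The fourth was BRPF3 (1.25-fold), no longer called without DMSO replicate 2 or 3. TRIM33 and BAZ2A, chromatin readers, rose 1.25-fold and 1.3-fold. BRD2, a BET protein, had a log2 fold change of 0.04 and did not pass. HMGA1, an architectural chromatin protein, stood at 789, 736 and 723 CPM with DMSO and 1559, 1507 and 1511 CPM with BAY-850. No treated library came near the range of the controls, and it rose 2.04-fold (log2 fold change 1.03, SE 0.05, adjusted p = 8.32e-08).

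Without BAY-850 replicate 3 a larger share of genes was called at every level, and by the widest ratio at low levels. Of the 1902 genes tested at a mean under 1 CPM, 1.37% were called with all 6 libraries and 3.89% without this library. For the 2058 genes at 100 CPM or more these were 36.5% and 39.7%. The SD over genes of the log2 difference between replicate 3 and the mean of the other treated libraries was 1.48 in the lowest class of level and 0.117 in the highest. Of the tested genes, 599 had no count in it, and 243 of these had at least 10 counts in each of the other 5 libraries, against 1 to 4 genes so missing from any other library. Among them were the readthrough locus GPR75-ASB3, at 3.47, 11 and 10.1 CPM with DMSO and 4.17, 2.07 and 0 CPM with BAY-850, and UGT1A9, a glucuronosyltransferase that shares most exons with its neighbours, at 4.14, 4.35 and 7.81 CPM with DMSO and 4.32, 3.20 and 0 CPM with BAY-850. Leaving it out gave 3902 calls, of which 75.0% were also calls with all 6 libraries. Among the genes tested in this way, 13.1% were higher and 11.8% lower. A total of 975 were called only without it and 203 only with it. LSS, a cholesterol cyclase, is among the former: it stood at 48.9, 47.6 and 48.4 CPM with DMSO and 69.6, 71.4 and 47.0 CPM with BAY-850, with replicate 3 at the level of the controls. Its adjusted p was 0.0646 with all 6 libraries and 4.12e-05 without replicate 3. SREBF1, a lipid synthesis factor, stood at 23.2, 22.7 and 25.9 CPM with DMSO and 34.5, 34.6 and 21.3 CPM with BAY-850, and its adjusted p went from 0.176 to 0.000685. GGH, a folate hydrolase, stood at 75.4, 76.1 and 72.8 CPM with DMSO and 59.4, 56.5 and 71.7 CPM with BAY-850, and its adjusted p went from 0.0546 to 0.00104.

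**Figure D4:**
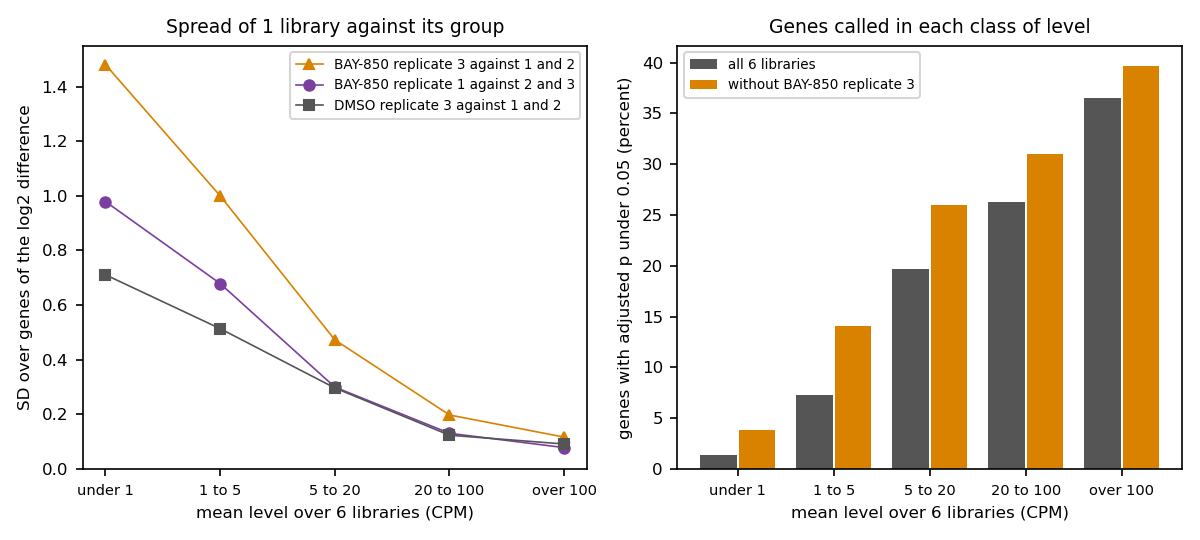
Left, SD over genes of the log2 difference between 1 library and the mean of the others of its group, by class of mean level (CPM), for BAY-850 replicates 3 and 1 and DMSO replicate 3; right, percent of genes with an adjusted p under 0.05 in each class (bars from 0). BAY-850 replicate 3 spreads most of these in each class, 1.48 under 1 CPM and 0.117 at 100 CPM or more, and the share called without it is higher in each class.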

How the data were processed

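Total RNA was taken from SK-OV3 cells with Trizol and RNeasy columns, and strand-marked libraries were made from oligo-dT selected mRNA, per the labels and the study's methods. The deposited table holds expected counts per gene, estimated by the authors with RSEM 1.2.15 over Bowtie2 2.1.0 alignments to hg38, per the submitters' processing notes. The annotation, and whether strand was used in counting, are not given in the sources used here, so genes that overlap on opposite strands are uncertain. Expected counts share reads between near-identical genes by estimate, and they were rounded to whole numbers before testing. Groups came from the labels.

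Genes were filtered with filterByExpr on the 6 libraries, scaled by TMM and tested with edgeR 4.0.16 (quasi-likelihood, R 4.3.3), BAY-850 against DMSO, with Benjamini-Hochberg adjusted p-values over 15348 genes. Log2 fold changes and SE are from the fit, and fold changes in the text are the fitted log2 values on the linear scale, so they can differ slightly from ratios of the printed CPM. Libraries held 35442448 to 51840233 counts, and the biological coefficient of variation was 0.144. The script was tested on simulated data. Promoter sequences are from RefSeq. Alternatives were RLE factors, library size with and without ribosomal RNA genes, DESeq2 1.42.0, limma-voom (limma 3.58.1), other filters, the replicate number as a block and each library left out.

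The gene lists, and the rules for naming genes, were chosen with earlier results of these data known. Named were the 10 largest changes in each direction at 1 CPM or more without overlap, up to 5 members a list and direction by adjusted p, members whose role needs a value, genes the study names, the 5 largest differences in CPM in each direction, genes with no count in BAY-850 replicate 3 and genes called only without it. Not all of them are printed, and some genes are not reported here. ATF4, DNMT3B, IFIT1, IRF7, IRF9, STAT2 and GRHL1 fall outside these rules and were chosen after their values were seen.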

Additional observations from a re-analysis of the deposited data

How the results depend on the processing

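The count of genes called higher ran from 993 to 2050 and of genes called lower from 788 to 1852 when each of the 6 libraries was left out in turn. The lowest counts came without DMSO replicate 2 (993 and 788) and the highest without BAY-850 replicate 3, and without DMSO replicate 3 there were 1124 and 859. At 1.5-fold and an unadjusted p under 0.05 the counts ran from 557 to 661 higher, around 623 with all libraries, and from 488 to 751 lower, around 619. The other scalings, filters and tools left all 4 counts within 1.5 times their value, and scaling moved the median log2 fold change of all genes by at most 0.01. The replicate numbers did not pair the libraries: the correlations of the deviations of same-numbered libraries were -0.02, 0.01 and 0.003, and with the replicate number as a block the calls were 1449 higher and 1267 lower, with 4 of the printed calls lost. Library size alone lost 6 of them, and each other scaling, filter or tool lost 0 to 3.

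Of the 217 called genes printed, none changed direction under any alternative, and 11 lost their call without at least 1 library, each named with that library beside its value. Of the 45 printed genes that were not called, 8 were called without BAY-850 replicate 3, 6 without DMSO replicate 1 and 6 with DESeq2. With no filter on low counts 5 were called, with at least 10 counts in each library 4, and with each other alternative at most 2. Among the 45, CDH1 ran from -0.1864 to 0.0082, CENPA from -0.0076 to 0.1509 and SRF from -0.1191 to 0.0148 on the log2 scale as each library was left out, and so changed side of 0. The cause of these moves was not tested. Where a list had 0 edgeR calls in a direction, at most 3 members had an unadjusted p under 0.05 in it, DESeq2 called at most 1 and limma-voom 0. Of 84 counts of list members called, 18 moved by more than 1.5 times under at least 1 other scaling, filter, tool or the block, and 5 of them by more than 1 member. Those 5 are the YAP and TEAD targets, the mitochondrial synthetases, the ribosomal proteins and the bromodomain genes, given in the report, and the amino acid transporters that fell (3, and 1 with library size alone). Genes called at least 2-fold lower were 165, and 220 with limma-voom. Under a mean of 1 CPM, 1.37% of genes were called, and 3.89% without BAY-850 replicate 3; the part of depth in this was not tested. With 3 libraries a group the data hold no second dose, time or line.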

Other observations

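Some genes outside the lists are given here as values, chosen after their values were seen. Among secreted liver-type proteins, SERPINA1 (alpha-1 antitrypsin) stood at 5.58, 6.38 and 7.36 CPM with DMSO and 16.6, 15.2 and 19.2 CPM with BAY-850 and CP (ceruloplasmin) at 61.3, 62.9 and 68.8 CPM with DMSO and 147, 145 and 160.2 CPM with BAY-850, and both rose, 2.64-fold and 2.34-fold. G0S2, an inhibitor of triglyceride lipase, stood at 70.7, 62.6 and 59.0 CPM with DMSO and 205, 210.3 and 196 CPM with BAY-850 and rose 3.18-fold. DHRS3, a retinaldehyde reductase, stood at 8.92, 5.89 and 8.83 CPM with DMSO and 36.4, 39.8 and 38 CPM with BAY-850 and rose 4.83-fold, and PLIN2, which coats lipid droplets, rose 1.97-fold. IL32, an inflammatory cytokine, rose 3.12-fold, TYMP, thymidine phosphorylase, 2.71-fold and the TNF family receptor CD40 1.96-fold. The groups overlapped in none of these, as was so for 38.8% of all genes tested. Because these genes were chosen with their values known, their separation is no added result.

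Other genes chosen in this way were lower. EDN1 (endothelin 1), a secreted peptide, stood at 306, 306 and 293 CPM with DMSO and 126, 129.6 and 145 CPM with BAY-850 and fell 2.26-fold. FGF1, a fibroblast growth factor, stood at 23.0, 22.8 and 23.8 CPM with DMSO and 6.98, 5.87 and 8.85 CPM with BAY-850 and fell 3.19-fold. WNT5A, a ligand of noncanonical WNT signals, fell 2.17-fold. VCAN (versican), FBN1 (fibrillin 1) and COL5A2, a collagen chain, fell 2-fold, 1.97-fold and 2.06-fold. HES1, the transcriptional repressor induced by Notch, stood at 127, 122 and 119 CPM with DMSO and 56.3, 53.6 and 47.6 CPM with BAY-850 and fell 2.34-fold. CD274, which encodes PD-L1 and can be induced by interferon, stood at 32.3, 36.1 and 36.1 CPM with DMSO and 15.4, 16.3 and 15.3 CPM with BAY-850 and fell 2.22-fold, unlike the 38 interferon-induced genes that rose. Upstream of those genes, IFNGR1, a subunit of the interferon gamma receptor, and TMEM173 (STING), a sensor adaptor of cytosolic DNA, rose 1.27-fold and 1.32-fold. The type I receptor subunit IFNAR1 had a log2 fold change of -0.13 and the kinase JAK1 of 0.11, and neither passed.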
